A study of Mus musculus with 12 samples.

Results

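The genes described here are 10 that build and secrete lipoproteins: the apolipoprotein genes Apoa1, Apoa2, Apoa4, Apoa5, Apob, Apoc1, Apoc3, Apoe and Apom, and Mttp, the gene of the microsomal triglyceride transfer protein. They were taken by symbol from the 17007 genes listed in the deposited table, all 10 were found, and all 10 passed the filter on low values that left 14397 genes for testing. RNA was sequenced from 12 libraries in 4 groups of 3: untreated livers of wild-type C57BL/6 mice (normal liver, NL), and c-MYC/MCL1/RictorKOTsc2KO hepatocellular carcinomas from mice given vehicle, MLN0128 or everolimus. All 9 tumors carried the c-MYC and MCL1 transgenes under the EF1α promoter and the loss of Rictor and Tsc2, made by delivering those plasmids with a Cre plasmid into hepatocytes of Rictor fl/fl Tsc2 fl/fl mice by hydrodynamic tail vein injection, so a tumor with intact Rictor or Tsc2 was not among the libraries. MLN0128 inhibits the mTOR kinase in either of its complexes, mTORC1 and mTORC2. Everolimus, a rapamycin analog, acts on mTORC1. The study takes mTORC2 to be inactive in these tumors without Rictor, so that there MLN0128 serves to block mTORC1. In its account everolimus inhibits the p70S6K/RPS6 arm of mTORC1, and MLN0128 both that arm and the 4EBP1/eIF4E arm. By the labels, each drug was given by gavage at 1 mg/kg/day on 6 days a week for 3 weeks from day 6 after the injection, and the mice were killed 3.7 weeks after it. The account of the sequencing experiment in the text of the study gives a treatment of days and not weeks, so how long these tumors were treated is uncertain in every drug comparison. The study's text and labels count the mice or tumors as 3 per group, and p-values measure the spread between these libraries.

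The liver secretes triglyceride as very low density lipoprotein (VLDL). Apolipoprotein B is the scaffold of each particle, and the microsomal triglyceride transfer protein loads lipid onto it in the endoplasmic reticulum. Apolipoproteins A-I and A-II make up most of the protein of high density lipoprotein (HDL), and the smaller exchangeable apolipoproteins C-I, C-III, A-IV, A-V and E move between particles and control lipolysis and uptake. Hepatocytes make most of these proteins, and the enterocyte of the gut is the other main source of apolipoproteins A-I, A-IV and B.

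Several library features bear on the values. The libraries held 17189238 to 25209635 reads, and the lowest value of any of the 10 genes stood on 515 reads. The deposited FPKM (fragments per kilobase of a gene, relative to sequencing depth) carried an extra factor between libraries, of 0.592 to 0.603 in normal liver and 1.11 to 1.38 in tumors. With plain library totals in its place, the median log2 fold change of all genes between vehicle and normal liver went from 0.06 to 0.62, and with a common sum of FPKM to 0.78, so that the genes called numbered 5209 higher and 1124 lower or 6158 and 914, in place of 2282 and 2428. Rictor read 1.65 to 2.57 FPKM in normal liver, 1.05 to 1.5 in the vehicle group, 1.65 to 2.21 in the MLN0128 group and 1.58 to 1.93 in the everolimus group, and Tsc2 read 4.50 to 5.32, 2.01 to 2.31, 2.81 to 3.96 and 2.78 to 2.87 FPKM, over whole genes and not over the deleted exons alone. MLN0128 replicates 1 and 2 held the female transcript Xist at 191 and 155 FPKM and 4 Y-linked genes at 0, unlike the other 10 libraries. In every comparison with MLN0128 this difference and the drug cannot be fully told apart. Everolimus replicate 2 read above its group for several hepatocyte and Kupffer cell genes, with albumin (Alb) at 4860 FPKM against 1320 and 851, and Clec4f, a Kupffer cell gene, at 26.2 against 6.66 and 5.96. Not all such genes did so: the hepatocyte gene Serpinc1 read 65.6 FPKM there against 70.3 and 60.8.

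In normal liver the 10 genes took 6.63% ± 0.285 (SD, n = 3) of all FPKM. They took 1.97% ± 0.420 with vehicle, 1.54% ± 0.393 with MLN0128 and 1.68% ± 0.465 with everolimus. The share was thus smaller in all 9 tumors than in any normal liver, and it does not depend on the factor between libraries. In tissue RNA, fewer hepatocytes and less of a transcript in each hepatocyte cannot be told apart. FPKM are per length, so levels may be compared between the genes. In normal liver the order by mean FPKM ran from Apoa2 (15633 ± 1097) and Apoe (14633 ± 1305), whose libraries overlapped, through Apoa1 (10330 ± 671), Apoc1 (5783 ± 237), Apoc3 (3073 ± 212), Apoa5 (683 ± 108), Apob (576 ± 24.8), Apom (377 ± 36.7) and Apoa4 (138 ± 28) to Mttp (66.1 ± 7.37), each apart from its neighbours. With vehicle the order began with Apoe (2037 ± 474), Apoa2 (1750 ± 403) and Apoa1 (1643 ± 360), which overlapped. Apoa4 (339 ± 27.4) then stood level with Apoc1 (336 ± 62.3), ahead of Apom (234 ± 18.7), Apob (124 ± 22.1), Apoc3 (102 ± 37.0), Mttp (35.8 ± 1.53) and Apoa5 (27.5 ± 1.76). Apoa4 thus moved from the ninth place to the fourth and Apoa5 from the sixth to the last.

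**Figure D1:**
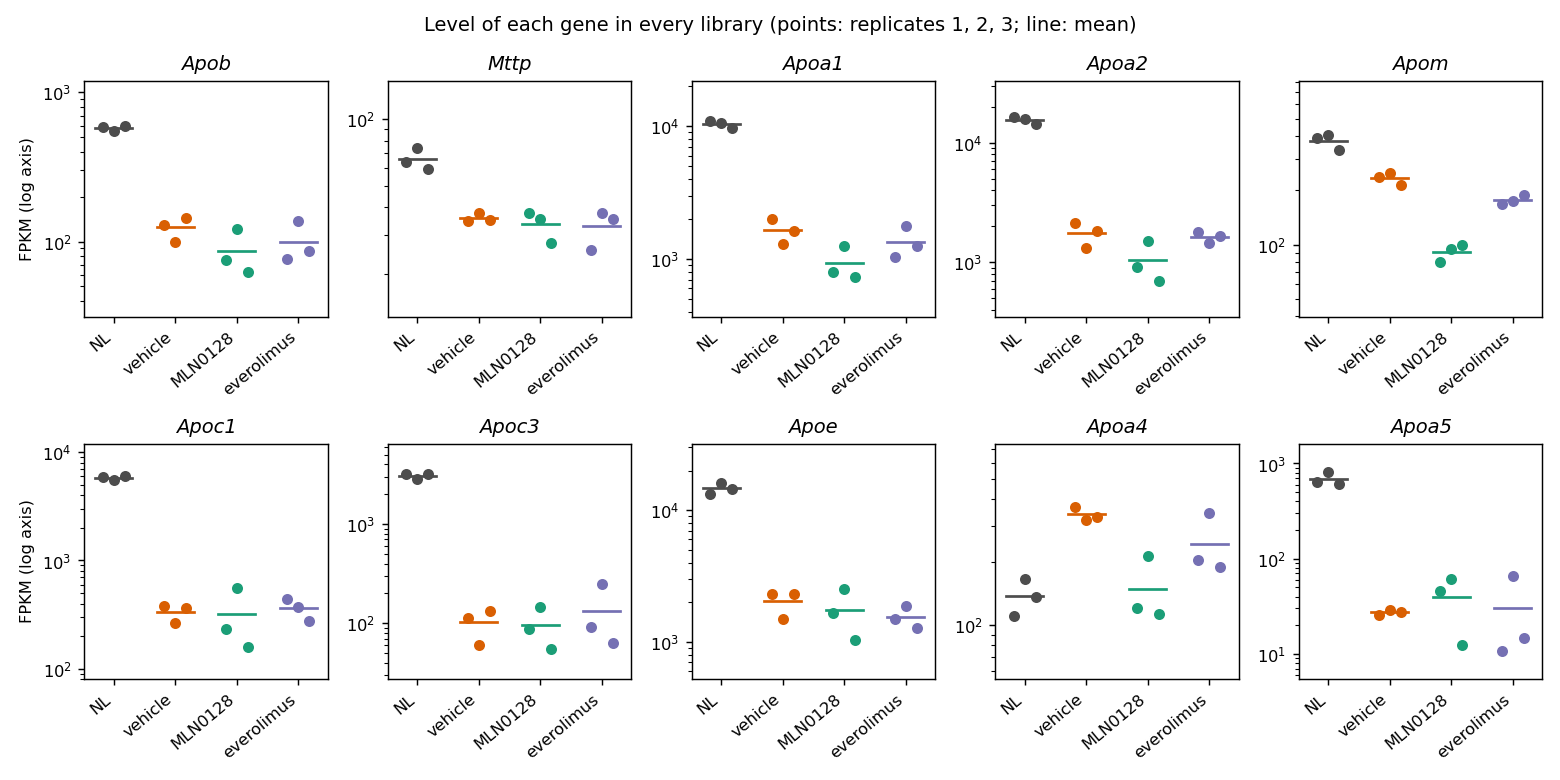
FPKM of each of the 10 genes on a log axis in the 3 libraries of normal liver (NL) and of tumors given vehicle, MLN0128 or everolimus, with a line at each mean. The 9 tumor libraries lie under the 3 normal livers for every gene but Apoa4, which read 318 to 370 FPKM with vehicle against 110 to 166 in normal liver; for Apom and Mttp that order as group means is reversed between vehicle and normal liver under plain library totals or a common sum of FPKM.

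The comparison of vehicle-treated tumors with normal liver asks how the tumor differs from the tissue it arises in. Of the 10 genes, 7 fell and Apoa4 rose when limma's treat asked for more than a 1.5-fold difference (adjusted p under 0.05 after Benjamini and Hochberg, over all 14397 genes). Of all genes tested, 16.9% were called lower and 15.9% higher. The median log2 fold change of the 10 was -2.77 against 0.06 for all genes. All 7 stayed lower by sign under the 3 other scalings tried, and the 7 calls were kept with plain library totals, 6 with a common sum of FPKM (without Apob) and 3 with quantile normalization, which forces 1 distribution on all libraries (Apoa5, Apoc1 and Apoc3). Over all genes these scalings called 1124 of 14440, 914 of 14663 and 2143 of 14397 lower. The libraries of the 2 groups did not overlap for any of the 10, 9 of them lower and 1 higher, where 35.1% of all genes did not overlap and were lower and 39% were higher. The moderated test with a 1.5-fold minimum called 9 of the 10 lower and 1 higher, against 25.8% and 27.1% of all genes.

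The particle scaffold fell, and its lipid loader did not pass the test. Apob read 583, 548 and 596 FPKM in normal liver and 130, 99.9 and 143 with vehicle. That is 4.63-fold lower by means, with a log2 fold change of -2.22 (SE 0.26, limma adjusted p = 0.000187). Mttp read 64.3, 74.2 and 59.8 FPKM in normal liver and 34.6, 37.5 and 35.2 with vehicle. The vehicle libraries were the lower ones for Mttp, by 1.85-fold, but the treat test was not passed (log2 fold change -0.86, SE 0.16, adjusted p = 0.142; moderated test of any difference, 0.000478), and the sign turned to 0.05 with plain library totals and 0.31 with a common sum of FPKM. Inside each library, where the factor between libraries cancels, the ratio of Mttp to Apob was 0.10 to 0.135 in normal liver and 0.246 to 0.375 with vehicle.

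Of the HDL proteins, the A-I and A-II transcripts fell, and that of apolipoprotein M, an HDL protein that carries small lipids, did not pass the test. Apoa1 read 10900, 10500 and 9590 FPKM in normal liver against 2010, 1290 and 1630, which is 6.29-fold lower (log2 fold change -2.67, SE 0.29, limma adjusted p = 5.96e-05). For Apoa2 the values were 16500, 16000 and 14400 FPKM against 2120, 1320 and 1810, 8.93-fold lower (-3.18, SE 0.30, adjusted p = 1.6e-05). All 3 vehicle libraries lay far under the 3 normal livers for both genes. Apom read 391, 404 and 335 FPKM in normal liver and 237, 251 and 214 with vehicle. These libraries did not overlap either, yet the 1.61-fold lower mean did not pass the treat test (log2 fold change -0.68, SE 0.14, adjusted p = 0.52, 0.000824 by the moderated test) and its sign turned to 0.25 with plain library totals and 0.51 with a common sum of FPKM.

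Among the exchangeable apolipoproteins were the steepest falls. Apoc3, whose protein slows lipolysis and uptake of triglyceride-rich particles, read 3170, 2830 and 3220 FPKM in normal liver and 113, 60.5 and 132 with vehicle, a mean 30.2-fold lower (log2 fold change -4.97, SE 0.47, limma adjusted p = 9.35e-06). Apoc1, which also restrains receptor uptake, read 5850, 5520 and 5980 FPKM against 380, 265 and 364, 17.2-fold lower (-4.12, SE 0.37, adjusted p = 7.77e-06). Apoe, the ligand by which remnants bind their receptors, read 13400, 16000 and 14500 FPKM against 2300, 1490 and 2320, 7.18-fold lower (-2.87, SE 0.34, adjusted p = 9.99e-05). Apoe and Apoc1 are neighbours on chromosome 7, within 9.71 kb (chr7:19689481-19699188, GRCm38), and did not fall equally. The ratio of Apoc1 to Apoe was 0.345 to 0.437 in the normal livers and 0.157 to 0.178 in the vehicle libraries.

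The 4 genes Apoa1, Apoc3, Apoa4 and Apoa5 lie side by side within 43.3 kb on chromosome 9 (chr9:46228580-46271919, GRCm38), and they did not move together. Apoa4, an apolipoprotein of triglyceride-rich particles and HDL, read 110, 166 and 137 FPKM in normal liver and 370, 318 and 329 with vehicle. All 3 vehicle libraries were above all 3 normal livers, 2.46-fold by means (log2 fold change 1.31, SE 0.28, limma adjusted p = 0.0362). The direction was higher in every alternative run (log2 fold change 1.16 to 2.5), but the call was lost on leaving out NL replicate 1 (adjusted p = 0.129) or 3 (0.0737), or vehicle replicate 1 (0.0961), 2 (0.0602) or 3 (0.0673), and the adjusted p ran from 5.49e-05 to 0.129 over all alternatives. Apoa5, whose protein raises lipolysis by lipoprotein lipase, went the other way. It read 640, 806 and 602 FPKM in normal liver and 25.6, 29.1 and 27.7 with vehicle, 24.9-fold lower (log2 fold change -4.58, SE 0.62, adjusted p = 0.000162).

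Ratios within a library put the cluster on 1 scale. Apoa4 stood at 0.0101 to 0.0158 of Apoa1 in normal liver and at 0.184 to 0.247 with vehicle. Apoc3 stood at 0.270 to 0.336 of Apoa1 and then at 0.0469 to 0.0810, and Apoa5 at 0.0587 to 0.0768 and then at 0.0127 to 0.0226. None of these 3 ranges overlapped between the groups. As a share of the 10 genes' FPKM, Apoa4 made up 0.268% ± 0.0511 in normal liver and 5.22% ± 0.819 with vehicle. Part of the Apoa4 gene has a gene on the opposite strand: 634 of its 1815 exon bases (34.9%) lie within Gm47528, and 524 of the 2522 exon bases of Apoa5 (20.8%) lie within Gm47544. Whether counting used the strand is not given in the sources used here. Gm47528 itself read 0.0423 to 0.525 FPKM in normal liver and 1.93 to 4.83 with vehicle, and its part in the Apoa4 values was not tested.

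**Figure D2:**
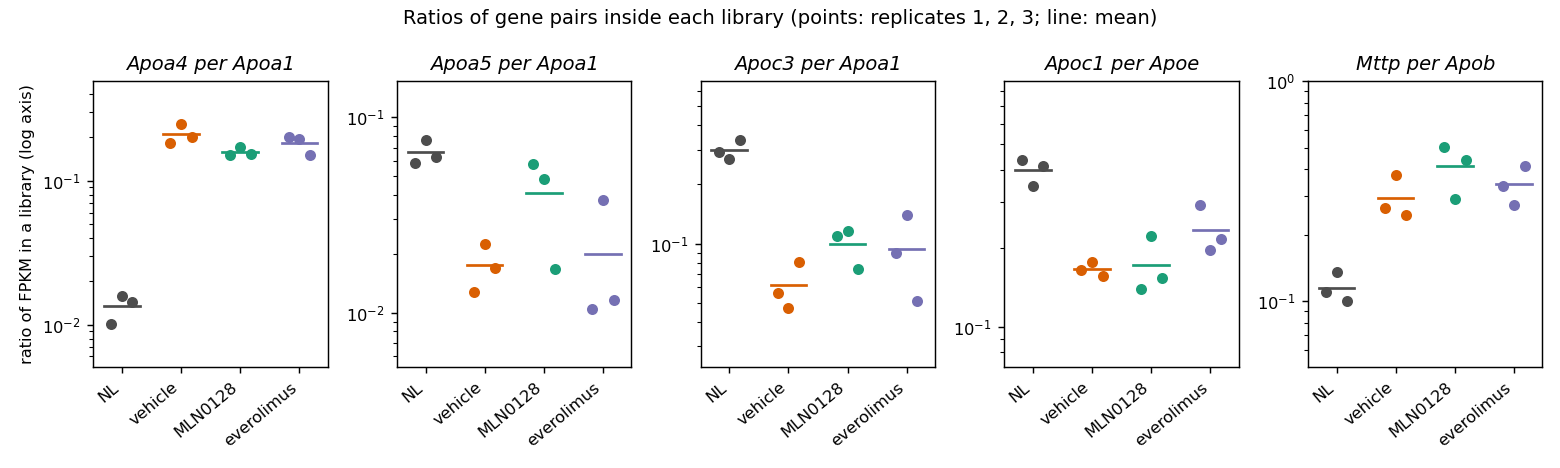
Ratio of the FPKM of gene pairs inside each library, on a log axis, with a line at each group's mean. Apoa4 per Apoa1 is 0.0101 to 0.0158 in normal liver (NL) and 0.151 to 0.247 over the 9 tumors, while Apoc3 per Apoa1 is 0.270 to 0.336 in normal liver and at most 0.140 in tumors.

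The bases before the starts of the 3 cluster genes that share a strand are shown because these neighbours moved in opposite directions, with Apoa2 beside them as another gene that fell. They are RefSeq's promoter windows of GRCm38.p6, all on the plus strand, from 250 bases before the RefSeq start site and ending before the first base that GENCODE M21 places in the gene. They cover chr9:46228380-46228579 for Apoa1, chr9:46240594-46240695 for Apoa4, chr9:46268383-46268632 for Apoa5 and chr1:171224804-171225053 for Apoa2, and capitals mark a match to a searched motif.
Apoa1: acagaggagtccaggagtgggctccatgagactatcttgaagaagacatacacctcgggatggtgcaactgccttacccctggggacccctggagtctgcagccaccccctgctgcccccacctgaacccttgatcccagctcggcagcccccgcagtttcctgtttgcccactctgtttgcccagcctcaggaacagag
Apoa4: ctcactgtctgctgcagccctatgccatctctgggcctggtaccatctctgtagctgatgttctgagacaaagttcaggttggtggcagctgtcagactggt
Apoa5: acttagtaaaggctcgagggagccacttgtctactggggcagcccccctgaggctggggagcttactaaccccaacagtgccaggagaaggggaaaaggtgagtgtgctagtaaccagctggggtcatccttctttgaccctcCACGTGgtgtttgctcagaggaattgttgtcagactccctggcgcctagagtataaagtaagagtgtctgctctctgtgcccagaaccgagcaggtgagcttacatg
Apoa2: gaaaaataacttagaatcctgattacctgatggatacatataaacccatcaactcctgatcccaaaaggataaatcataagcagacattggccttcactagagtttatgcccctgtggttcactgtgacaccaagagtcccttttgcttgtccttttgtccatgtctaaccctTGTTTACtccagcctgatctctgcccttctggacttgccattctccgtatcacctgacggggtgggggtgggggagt
The search took windows from 250 bases before to 50 bases after a start, which RefSeq gives for 8 of the 10 genes in 12 windows (Apoc1 and Apoc3 have none). Both strands were read for CAAAGTCCA (a core of HNF4 sites), TGTTTAC (forkhead factors), CACGTG (the E-box, which MYC and others bind) and TCACNCCAC (SREBP). The E-box matched in Apoa5, 107 bases before its start, and the forkhead motif in Apoa2, 77 bases before its start, and at 1 further start of Apoe. No motif overlapped another in the printed windows. The other 2 motifs had no match in the 12 windows. Over all 32851 windows of the table, 7.15% held the E-box, 3.65% the forkhead motif, 1.24% the SREBP motif and 0.475% the HNF4 motif.

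**Figure D3:**
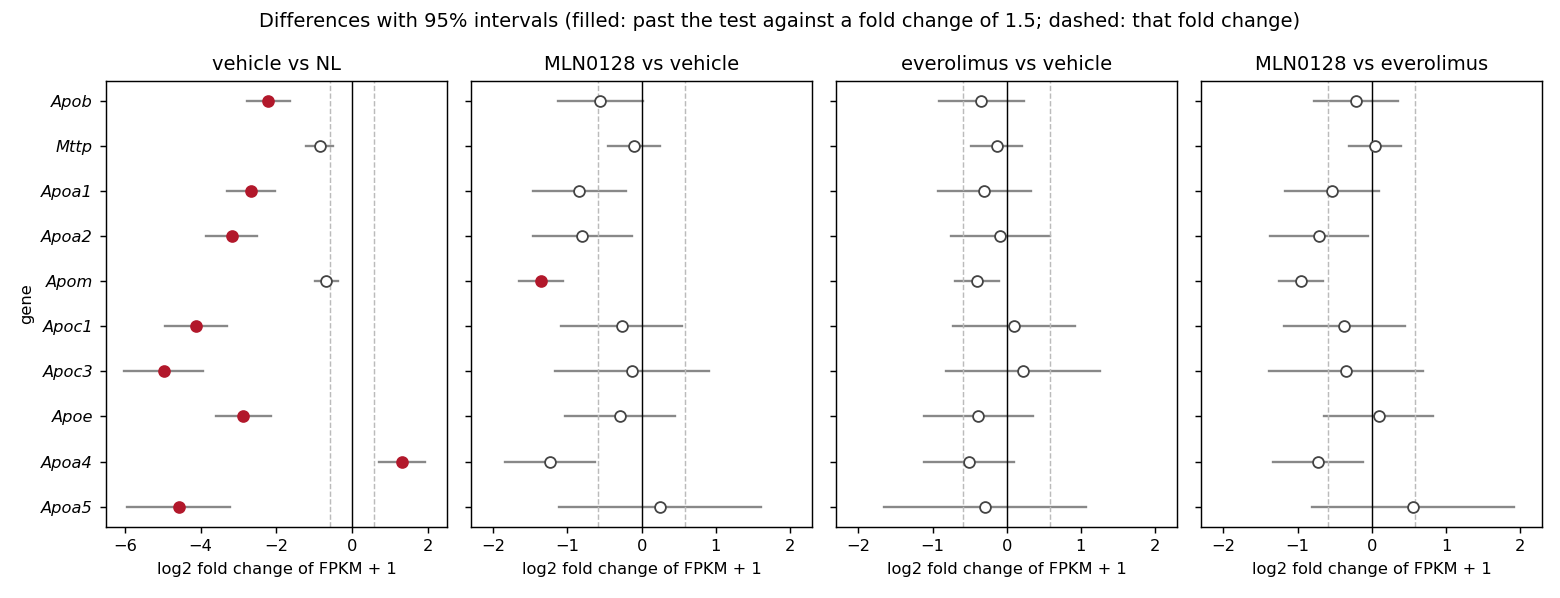
Log2 fold change of FPKM + 1 of each gene with its 95% interval in 4 comparisons of 3 against 3 libraries, filled where limma's treat found more than a 1.5-fold difference, which is dashed. In vehicle against normal liver 8 genes are filled, 7 lower and Apoa4 higher, and with MLN0128 against vehicle Apom alone is filled; the signs of Apom and Mttp against normal liver turn under plain library totals and a common sum of FPKM, and the first panel has a wider axis than the others.

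MLN0128 against vehicle asks what blocking the mTOR kinase did to the tumors. Apom fell, and it was the 1 gene of the 10 called by treat, where 1.65% of all genes were called lower and 0.479% higher. It read 79.6, 94.2 and 100 FPKM with MLN0128 against 237, 251 and 214, so the highest treated library lay under the lowest vehicle library. That is 2.56-fold lower by means (log2 fold change -1.35, SE 0.14, 95% interval -1.65 to -1.05, limma adjusted p = 0.00888). The fall of Apom kept its sign in all 24 alternatives (log2 fold change -1.42 to -0.98) and was called in 20 of the 23 with at least 2 libraries in each group, the others being without MLN0128 replicate 1 (adjusted p = 0.055), with a common sum of FPKM (0.0739) and with quantile normalization (0.251). MLN0128 replicate 3, the treated library without Xist RNA, gave a log2 fold change of -1.22 by itself, a value with no spread of its own.

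Apoa4 and Apoa1 were lower with MLN0128 by the moderated test but not by treat. Apoa4 read 121, 215 and 113 FPKM against 370, 318 and 329 with vehicle, and no treated library reached a vehicle library. It was 2.27-fold lower (log2 fold change -1.23, SE 0.28, 95% interval -1.84 to -0.63, moderated adjusted p = 0.00617, treat 0.322). Against normal liver, at 110 to 166 FPKM, the log2 fold change of Apoa4 with MLN0128 was 0.08 (95% interval -0.53 to 0.68) in the deposited FPKM, but 1.15 with plain library totals (limma adjusted p = 0.0547), 1.51 with a common sum of FPKM (0.00751) and 1.35 with quantile normalization (0.0185), the last 2 called higher. Over all genes these scalings put the median at 0.72, 0.95 and 0.05. They called 5919 of 14440, 7257 of 14663 and 2565 of 14397 genes higher. Apoa1 read 803, 1250 and 737 FPKM against 2010, 1290 and 1630 (log2 fold change -0.84, SE 0.29, moderated adjusted p = 0.0443, treat 1). The groups came close for Apoa1, at 1250 FPKM in the highest MLN0128 library and 1290 in the lowest vehicle library. By the moderated test and a 1.5-fold minimum, 3 of the 10 genes were called lower and 0 higher, against 11.2% and 8.09% of all genes. No overlap between the groups was seen for the same 3 genes, all lower, against 23.4% of all genes.

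The other 7 genes passed neither test with MLN0128. Apoa2 read 911, 1510 and 700 FPKM against 2120, 1320 and 1810 (log2 fold change -0.80, 95% interval -1.46 to -0.13, moderated adjusted p = 0.0642). Apob read 75.2, 122 and 62.8 FPKM against 130, 99.9 and 143 (-0.56, 95% interval -1.13 to 0.01). The remaining 5 lay between -0.29 for Apoe and 0.25 for Apoa5. Apoa5 was the most uneven, at 46.1, 60.7 and 12.3 FPKM, 2 libraries above the vehicle range of 25.6 to 29.1 and 1 below it. The 3 MLN0128 libraries were ordered alike over most genes: replicate 2 was the highest for 8 of the 10 and replicate 3 the lowest for 9, Apom being an exception to both. Summed over 7 hepatocyte markers, replicates 1, 2 and 3 held 3593, 5227 and 2688 FPKM, in that same order. The FPKM of all listed genes summed to 277477, 330927 and 252679, again in that order. How many of all genes follow it was not counted. Against vehicle, the moderated test with a 1.5-fold minimum called 3 of the 7 hepatocyte markers, 5 of 10 macrophage markers and 3 of 4 biliary and progenitor markers lower with MLN0128, and 0 higher. In the deposited FPKM, hepatocyte markers summed to 2688 to 5227 with MLN0128 and 4835 to 7374 with vehicle, which overlap. Macrophage markers summed to 83.9 to 155 and 174 to 245, which do not. These sums carry the factor between libraries, 1.17 to 1.38 with MLN0128 and 1.14 to 1.16 with vehicle. The gap between the macrophage sums therefore rests on the scaling. The part of these markers in the differences of Apom, Apoa4 and Apoa1 was not tested.

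Everolimus against vehicle asks the same of a drug that, in the study's account, inhibits the p70S6K/RPS6 arm of mTORC1. None of the 10 genes passed limma's treat or the moderated test with a 1.5-fold minimum, and 1, Apom, had an unadjusted p under 0.05. Of all genes, treat called 0.57% lower and 0.0347% higher, and the moderated test 4.69% and 2.03%. Apom read 167, 174 and 189 FPKM with everolimus, all 3 under the vehicle range of 214 to 251, the 1 gene of the 10 with no overlap, as were 14.8% of all genes on the lower side (log2 fold change -0.40, SE 0.14, 95% interval -0.70 to -0.10, moderated adjusted p = 0.0827). Apoa4 read 206, 343 and 189 FPKM, with replicate 2 inside the vehicle range and the other two below it (-0.51, 95% interval -1.11 to 0.10). The other 8 genes ranged from -0.38 for Apoe to 0.22 for Apoc3 and overlapped vehicle.

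Everolimus replicate 2 stood apart for several genes. It was the highest of its group for 7 of the 10 genes, a count that was not taken over all genes. Apoa5 read 10.8, 66.5 and 14.5 FPKM and Apoc3 92.1, 246 and 63.4, with replicate 2 above every vehicle library for both. Its hepatocyte markers summed to 9841 FPKM, of which Alb was 4860, against 3566 and 3512 in the other replicates, and its macrophage markers to 266 against 117 and 131. Without that library the log2 fold change against vehicle was -1.07 for Apoa5, in place of -0.30, and -0.34 for Apoc3, in place of 0.22, and still none of the 10 was called by treat.

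**Figure D4:**
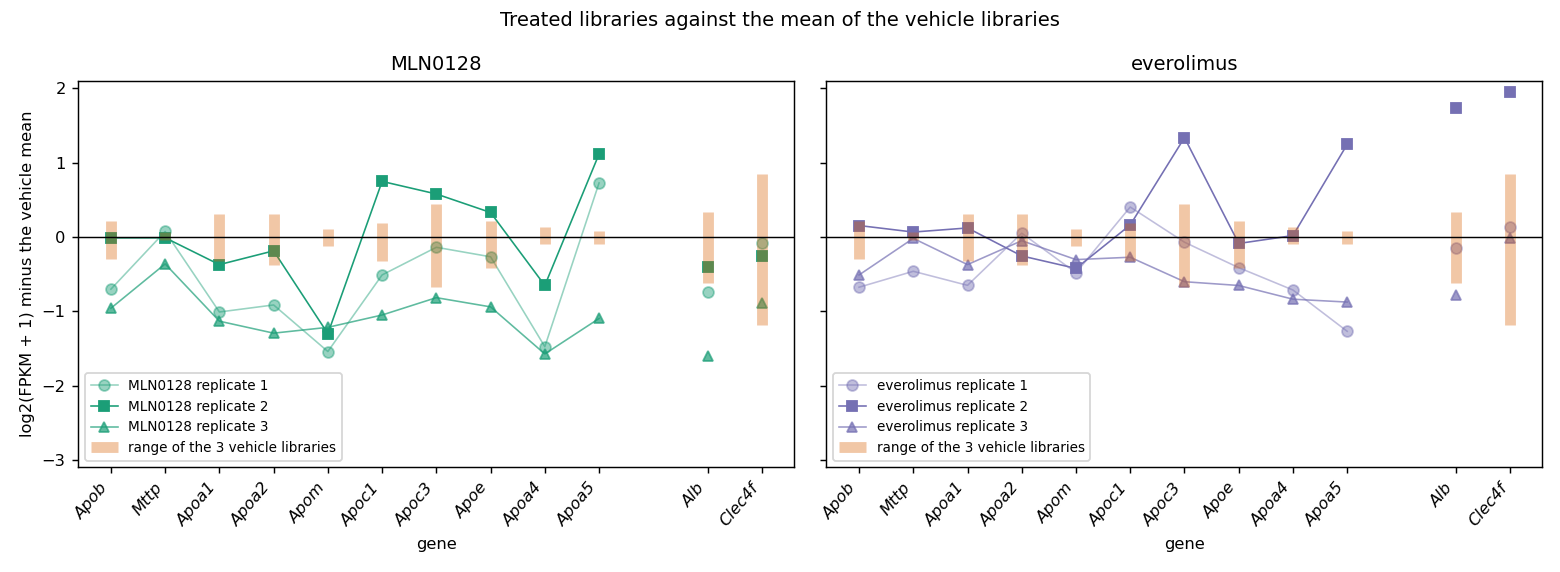
Log2(FPKM + 1) of each gene in the 3 MLN0128 and the 3 everolimus libraries minus the mean of the vehicle libraries, with the range of the vehicle libraries as bars and with Alb (hepatocyte) and Clec4f (Kupffer cell) at the right. Apom lies under the vehicle bar in all 6 treated libraries, at -1.54 to -1.22 with MLN0128 and -0.48 to -0.30 with everolimus, and everolimus replicate 2 stands at 1.73 for Alb and 1.96 for Clec4f.

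By the labels the drugs were given at the same dose by weight and the same times. Between them, 0 of the 10 genes differed by limma's treat test, which called 0.0347% of all genes lower with MLN0128 and 0.00695% higher, and 3 had an unadjusted p under 0.05 (Apom, Apoa4 and Apoa2, all lower with MLN0128). Apom was called lower by the moderated test with a 1.5-fold minimum, which called 3% of all genes lower and 2.3% higher. Its MLN0128 libraries (79.6 to 100 FPKM) and everolimus libraries (167 to 189) did not overlap, which held for 15.2% of all genes on the lower side, and the difference was -0.95 on the log2 scale (SE 0.14, 95% interval -1.25 to -0.65, moderated adjusted p = 0.00639, treat 1). For Apoa4 the difference was -0.72 (95% interval -1.33 to -0.12, moderated adjusted p = 0.119) and for Apoa2 -0.71 (-1.38 to -0.05, 0.156). The intervals of the other 7 genes included 0, the widest being that of Apoa5 (-0.81 to 1.91), so for them no difference was detected, within the size that each interval leaves possible.

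The treated tumors were also set against normal liver, in comparisons that share the normal livers with that of vehicle. With MLN0128, 9 of the 10 were called lower by treat, where 20.2% of all genes were called lower and 17.1% higher, and with everolimus also 9, where 18.4% and 16.9% were. By the moderated test with a 1.5-fold minimum it was 9 lower and 0 higher with MLN0128 (28.6% and 28.4% of all genes) and 9 lower and 1 higher with everolimus (27.1% and 27.5%). The 9 lower genes did not overlap normal liver in either group, which held for 36.3% of all genes with MLN0128 and 35.4% with everolimus. Apom was among them in both, 4.13-fold lower with MLN0128 (log2 fold change -2.03, SE 0.14, adjusted p = 2.68e-06) and 2.13-fold lower with everolimus (-1.09, SE 0.14, adjusted p = 0.00632), in the deposited FPKM. Both rest on the scaling: with MLN0128 Apom stood at -0.95 with plain library totals, still called, and at -0.60 with a common sum of FPKM (adjusted p = 0.617) and -0.65 with quantile normalization (0.666), not called, and with everolimus at -0.14, 0.10 and 0.07, none of them called. The genes called lower numbered 8, 7 and 6 with MLN0128 and 7, 7 and 4 with everolimus under these 3 scalings. Of all genes tested under them (14440, 14663 and 14397), 1161, 873 and 2458 were called lower with MLN0128. With everolimus it was 1158, 924 and 2326. Mttp was just past the threshold (adjusted p = 0.0497 and 0.0356) and turned to 0.45 and 0.16 with a common sum of FPKM. Mttp was called in 10 of 24 and 16 of 23 alternatives. Its call with MLN0128 was lost without NL replicate 1 (adjusted p = 0.0834) or 2 (0.154), MLN0128 replicate 2 (0.0549) or 3 (0.182), everolimus replicate 3 (0.0584) or any 1 of the vehicle replicates (0.0597 to 0.0639), and its call with everolimus without NL replicate 1 (0.0641) or 2 (0.118) or everolimus replicate 1 (0.163). Apoa4 with everolimus lay above all 3 normal livers in every library (log2 fold change 0.80, 95% interval 0.20 to 1.41, with 38.5% of all genes above without overlap, moderated adjusted p = 0.0215, treat 0.464), and treat called it higher with plain library totals (1.74, adjusted p = 0.00172), a common sum of FPKM (1.98, 0.00062) and quantile normalization (1.84, 0.00108). Of all genes tested, 5200, 5947 and 2398 were called higher with everolimus under these scalings, and the medians were 0.60, 0.74 and 0.03.

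Genes of the wider pathway were called lower in vehicle tumors too, more of them in some lists than in others and fewer under other scalings. Of 10 other apolipoproteins and HDL-bound proteins tested, 7 fell and 0 rose by treat, with a median log2 fold change of -2.71. Pon1, the HDL-bound paraoxonase, read 577, 500 and 595 FPKM in normal liver and 1.38, 0.557 and 2.06 with vehicle (log2 fold change -7.95, SE 0.41, limma adjusted p = 6.43e-08). Apon (-4.55), Apof (-4.15) and Apoc4 (-3.75) came next. Apoc2, the activator of lipoprotein lipase, read 0.342 to 3.52 FPKM over all 12 libraries, but 79.5% of its exon bases are shared on the same strand with Gm44805, and its level is uncertain.

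Of the assembly genes some were called lower, and of the receptor and lipolysis genes some in each direction. Of 9 genes of assembly and secretion, 5 fell and 0 rose, with a median of -1.33. Cideb, a droplet protein needed for VLDL lipidation, stood at -2.85 (SE 0.27), Sar1b, the GTPase of the COPII coat that carries these particles, at -1.93 (SE 0.23), Tm6sf2 at -1.80 (SE 0.29) and Dgat2, which makes triglyceride, at -1.62 (SE 0.26). Of 8 lipoprotein receptor genes, 3 fell, among them Lrp1 (-2.48), and Vldlr rose, from 0.166 to 0.522 FPKM in normal liver to 1.96 to 3.28 (log2 fold change 1.39, SE 0.19, limma adjusted p = 0.00255). Of 10 genes of HDL formation and lipolysis, 5 fell, led by hepatic lipase Lipc (-3.63), with Lcat (-2.89), which esterifies HDL cholesterol, and Lipg (-2.61). Lpl, the lipase that Apoa5 and Apoc3 act on, rose from 3.96, 10.3 and 2.98 FPKM to 24.1, 25.2 and 23.2 (log2 fold change 2.05, SE 0.31, adjusted p = 0.00124). With plain library totals the genes called lower were 1 of 9 for assembly (Cideb), 1 of 8 for receptors (Lrp1) and 5 of 10 for HDL and lipolysis, and the median of the receptors turned from -0.53 to 0.36. Vldlr and Lpl were called higher under each scaling tried.

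Among 20 transcription factors known to act on lipoprotein genes, 12 fell and 0 rose, with a median of -1.39. The steepest were Nr0b2 (-3.49), Cebpa (-2.99), Onecut1 (-2.38) and Srebf1 (-2.34). Hnf4a, the nuclear receptor that drives many apolipoprotein genes, read 217, 239 and 199 FPKM in normal liver and 113, 91.4 and 107 with vehicle (-1.07, SE 0.15, limma adjusted p = 0.012, or 0.054 without vehicle replicate 2). Ppara stood at -2.10 and Creb3l3, a factor for Apoa4 and Apoa5, at -1.89, both called. Foxa2 (-1.04, limma treat adjusted p = 0.101) and Foxo1 (-0.73, 0.432) were not called. With plain library totals 7 factors were called lower and 2 higher, Hnf4a stood at -0.14 and Creb3l3 at -0.96, neither called, and with a common sum of FPKM Hnf4a turned to 0.12. As a yardstick outside lipid transport, 18 of 18 other secreted plasma proteins of hepatocytes fell, with a median of -2.68 and a range from -5.50 for Alb to -1.64 for Gc, and 14 of 18 were called lower with plain library totals. The ratio of Apoa1 to Alb was 0.125 to 0.191 in normal liver and 0.886 to 1.35 with vehicle. Alb had the steepest fall of the 18, and the -2.67 of Apoa1 was near their median.

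With the drugs few of these genes were called against vehicle. With MLN0128, Vldlr fell to 0.107 to 0.360 FPKM (log2 fold change -1.49, SE 0.19, limma adjusted p = 0.0192). Its call was lost without vehicle replicate 2 (0.0599) or 3 (0.0722), without MLN0128 replicate 1 (0.0579) or 2 (0.0696), always with the same sign. By treat, 0 of the other 7 receptors, 0 of 10 other apolipoproteins, 0 of 9 assembly genes, 0 of 10 genes of HDL and lipolysis, 0 of 20 factors and 0 of 18 plasma proteins were called. With the moderated test and a 1.5-fold minimum, the 8 receptors, Vldlr included, gave 0 higher and 2 lower. The other lists, in the same order, gave 1 and 1, 0 and 3, 2 and 2, 4 and 0, and 0 and 3. Of all genes, that test called 8.09% higher and 11.2% lower. With everolimus 0 of the 75 were called by treat, and the moderated test gave 4 higher and 1 lower, against 2.03% and 4.69% of all genes. Hnf4a, Ppara, Creb3l3, Foxa2 and Foxo1 stood from -0.36 (Hnf4a) to 0.44 (Ppara) with MLN0128 and from -0.22 (Hnf4a) to 0.20 (Foxo1) with everolimus. Between the drugs, 4 of the 8 receptor genes were lower with MLN0128 by the moderated test, against 3% of all genes, and 0 by treat.

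**Figure D5:**
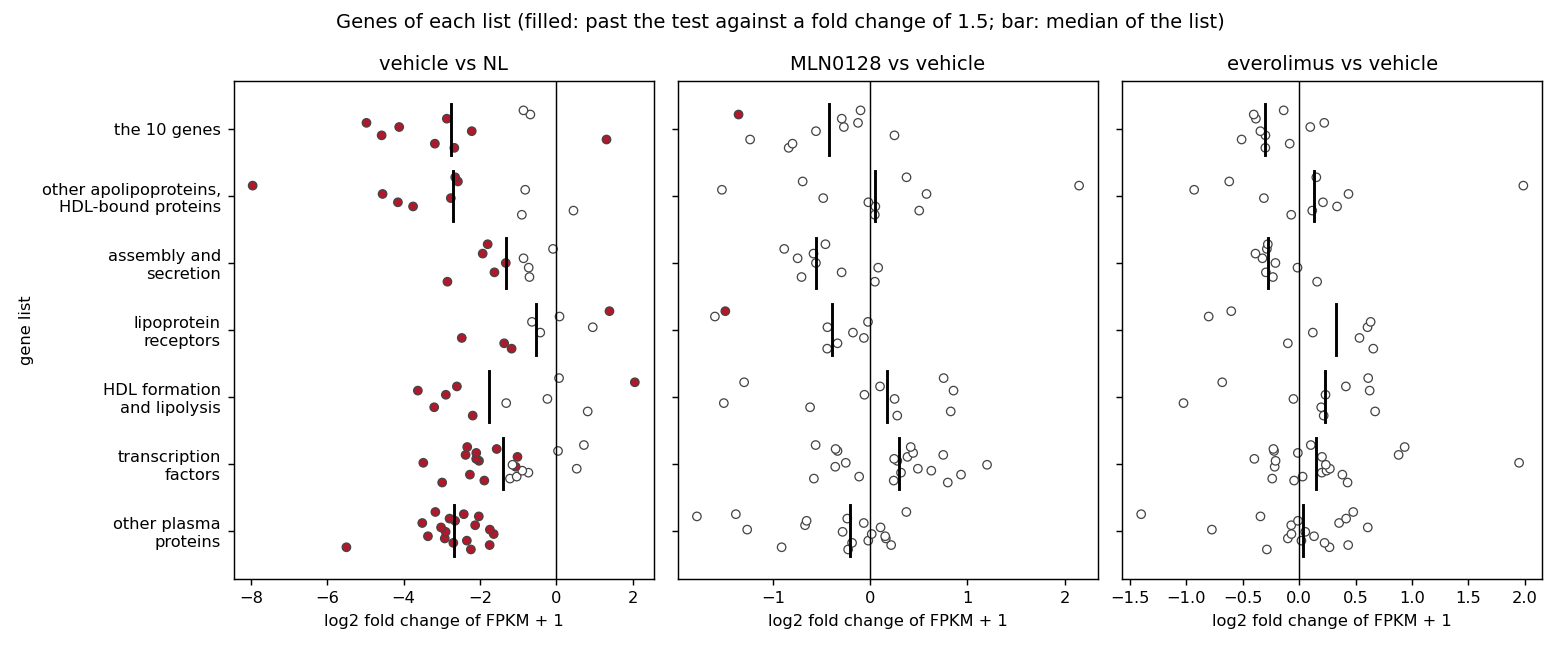
Log2 fold change of FPKM + 1 for each gene of 7 lists in 3 comparisons, filled where limma's treat found more than a 1.5-fold difference, with a bar at the median of the list; the axes differ between panels. In vehicle against normal liver the medians run from -2.77 for the 10 genes to -0.53 for the receptors, while against vehicle they run from -0.56 to 0.30 with MLN0128 and from -0.30 to 0.33 with everolimus; the signs of Apom and Mttp against normal liver turn under plain library totals and a common sum of FPKM.

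Markers of the cells in the tissue moved between the same groups. All 7 hepatocyte markers fell with vehicle by treat, and their sum went from 78822 to 98445 FPKM in normal liver to 4835 to 7374. Most of the sum in normal liver was Alb, at 57200 to 76600 FPKM against 953 to 1840 with vehicle. The log2 fold changes of the 7 ran from -5.50 (Alb) to -1.74, with a median of -2.43. Of 10 macrophage markers 3 fell and Cd68 rose, with sums of 404 to 508 and then 174 to 245 FPKM. All these sums carry the factor between libraries, 0.592 to 0.603 in normal liver and 1.14 to 1.16 with vehicle. The gap between the macrophage sums rests on that scaling. With plain library totals, treat no longer called the hepatocyte marker Hpx (adjusted p = 0.539) or the macrophage marker Cd5l (0.369). Of 4 biliary and progenitor markers tested 3 rose, Krt19 from 0.207 to 0.650 FPKM to 9.49 to 44.0, and Krt19 was back at 0.152 to 0.834 with MLN0128 and 0.257 to 0.944 with everolimus. Of 7 stellate cell and fibroblast markers 2 rose (Col1a1, Col1a2) and 3 fell, and of 6 endothelial markers 3 fell. The 5 lymphocyte markers summed to 0.406 to 2.03 FPKM in all 12 libraries. For the gut as a source of Apoa4, 5 enterocyte genes were looked for and 3 were found. Lct was listed at 0 in all 3 normal livers and at 0.0125 to 0.103 FPKM in the 9 tumors. Vil1 did not exceed 0.0783 FPKM in any normal liver. Its tumor ranges were 2.05 to 3.41 FPKM (vehicle), 0.978 to 3.51 (MLN0128) and 0.283 to 0.428 (everolimus). Between the drugs Vil1 was thus the lower with everolimus. Mean Apoa4 was 246 FPKM with everolimus and 150 with MLN0128, in libraries that overlapped (moderated test, adjusted p = 0.119). Fabp2, which the liver also makes, fell from 133 to 144 FPKM to 8.21 to 9.52 in the vehicle group. The part of these cell types in the 10 genes' differences was not tested.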

How the data were processed

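Total RNA from 12 libraries in 4 groups of 3 was sequenced by Novogene, and the authors called genes with edgeR's glmTreat. The deposited values are the authors' FPKM, rounded to 3 significant digits. The submitters' notes name GRCm38 and FastQC 0.11.7; the aligner, the counting and the gene lengths are not given in the sources used here. The 10 genes and all gene lists were chosen with earlier results of these data known.

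Values were taken as log2(FPKM + 1), so that fold changes of low genes are understated. A minimum of 0.5 FPKM in 3 libraries or more left 14397 genes, and the 12 libraries were fitted in 1 model with limma 3.58.1 (R 4.3.3), with a trend in the prior variance and 8 residual degrees of freedom. Calls are those of limma's treat for more than a 1.5-fold difference, with Benjamini-Hochberg adjustment over all genes tested and a limit of 0.05. SEs and 95% intervals come from limma's moderated test, which is given beside treat. The test was tried on simulated data. FPKM multiplied by exon lengths of GENCODE M21 gave whole reads, within 0.1, for 98.2% to 98.8% of values under 20 reads, which set the depth. All 10 genes are named in each comparison, and of each list at most 4 called genes in each direction plus 6 transcription factors, apart from some genes and a motif that are not reported here. Alternatives covered the pseudocount, filter, scaling, threshold, voom on recovered reads, prior variance, groups fitted, a replicate block and each library left out. Columns of all 12 libraries were used. The labels tie no libraries across groups, and no pairing was assumed. Sequences are from RefSeq. Software for tables and figures was pandas 2.3.3 and matplotlib 3.10.9.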

Additional observations from a re-analysis of the deposited data

How the results depend on the processing

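The 7 genes called lower and Apoa4 called higher in vehicle tumors kept their sign in all alternatives. Their count went from 8 to 4 with quantile normalization, and was 7 to 8 on leaving out 1 library. With MLN0128 against vehicle the count of 1 (Apom) went to 0 with a common sum of FPKM, with quantile normalization and with MLN0128 replicate 3 alone, which is assumed to vary like the other groups, to 3 by the moderated test, and was 0 to 1 on leaving out 1 library. Against normal liver the count with everolimus went from 9 to 5 with quantile normalization, where 4 of the 9 stayed lower and Apoa4 was called higher, and both treated groups gave 8 to 9 on leaving out 1 library. Between the drugs the moderated test called 1. The cause of these changes was not tested.

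These log2 fold changes took the opposite sign. With a common sum of FPKM, vehicle against normal liver gave 0.51 for Apom and 0.31 for Mttp, MLN0128 against vehicle 0.11 for Apoc3 and 0.14 for Mttp, MLN0128 against everolimus 0.0362 for Apob, MLN0128 against normal liver 0.45 for Mttp, and everolimus against normal liver 0.10 for Apom and 0.16 for Mttp. With plain library totals, the values were 0.25 for Apom and 0.0529 for Mttp in vehicle against normal liver, 0.0241 for Apoc3 and 0.0478 for Mttp in MLN0128 against vehicle, and 0.10 for Mttp in MLN0128 against normal liver. With quantile normalization, they were 0.33 for Apom in vehicle against normal liver, 0.23 for Apoc3, 0.0045 for Apoe and 0.16 for Mttp in MLN0128 against vehicle, 0.19 for Apoa2 in everolimus against vehicle, 0.0144 for Apob in MLN0128 against everolimus, and 0.0664 for Apom in everolimus against normal liver. With MLN0128 replicate 3 alone, Apoa5 stood at -1.10 against vehicle, Apoa5 at -0.80, Apoe at -0.56 and Mttp at -0.22 against everolimus, and Apoa4 at -0.26 against normal liver.

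Leaving out 1 library also turned signs. With MLN0128 against vehicle the ranges were -0.18 to 0.92 for Apoa5, -0.78 to 0.12 for Apoc1, -0.48 to 0.22 for Apoc3, -0.60 to 0.0324 for Apoe and -0.19 to 0.0325 for Mttp. With everolimus against vehicle they were -0.27 to 0.0681 for Apoa2, -1.07 to 0.19 for Apoa5, -0.0640 to 0.28 for Apoc1, -0.34 to 0.63 for Apoc3 and -0.24 to 0.0248 for Mttp. Between the drugs they were -0.49 to 0.0361 for Apob, -0.88 to 0.0211 for Apoc1, -0.76 to 0.21 for Apoc3, -0.22 to 0.42 for Apoe and -0.12 to 0.17 for Mttp, and for Apoa4 in MLN0128 against normal liver -0.21 to 0.25.

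Same-numbered libraries correlated at -0.289 to 0.148 in their deviations from the group means, not every library correlated best with its own number, and the numbers were not taken to pair the libraries. With the replicate number as a block the counts of called genes were 8 for vehicle, 8 for MLN0128 and 9 for everolimus against normal liver, 1 and 0 for MLN0128 and everolimus against vehicle and 0 between the drugs. The 1 call it changed was that of Mttp in MLN0128 against normal liver (adjusted p = 0.0522). With 3 libraries a group, the intervals given limit what was detectable.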

Other observations

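Over the 12 libraries, the genes whose log2 profile, centred on its own mean, lay nearest to that of Apob were Cpq, a plasma carboxypeptidase (root mean square difference 0.14), Reps2 (0.14) and Pgrmc1 (0.17), among 14383 genes compared. Nearest to Apoe were mt-Tc, a mitochondrial tRNA gene (0.17), Cat, catalase (0.18), and Etnppl (0.20). Nearest to Apoa4 were Wfdc3 (0.28), Arntl, the clock factor BMAL1 (0.29), and Il22ra1, a subunit of the interleukin-22 receptor (0.31). Wfdc3 had a mean of 0.158 FPKM in normal liver and 2.64 with vehicle. Arntl had a mean of 0.185 FPKM in normal liver, 1.89 with vehicle, 0.400 with MLN0128 and 1.16 with everolimus. The profiles were of log2(FPKM + 1), which shrinks the fold changes of genes this low. Nearness to Apoa4 on that scale is thus not likeness in fold change. These are descriptions over libraries that fall into 4 groups.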
